A study of Drosophila melanogaster with 4 samples.

Results

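The miR-281 hairpin pair, dme-miR-281-1 and dme-miR-281-2, was followed in small RNA libraries from Drosophila melanogaster ovaries. Its members are the rows of the miRNA count table whose name begins with miR-281 and a hyphen, whatever the copy or arm. This gave 4 of 495 rows, and 2 of the 4 had a count in any library, against 257 of all 495 rows. The counted rows were the 5p arms, with 52 to 1078 counts per library for dme-miR-281-1 and 290 to 10021 for dme-miR-281-2. The rows were selected by name, but the pair was proposed with its ratios between the groups already known, so those ratios are given as a description. The libraries came from ovaries with germline knockdown of Ars2 by hairpin stock 106344 of the Vienna collection (Ars2KD) or of the eye-colour gene white by stock 30033 (wKD, the control). Each group had 2 libraries, numbered 1 and 2 in the labels, and all were made from total RNA cut from a gel at 19 to 29 nt. The labels give no driver, age or number of flies and do not call the libraries separate animals, so the spread between libraries may be technical.

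A miRNA hairpin is cut from a longer transcript by Drosha and trimmed by Dicer-1, and 1 strand of the resulting duplex, from the 5p or the 3p arm, is kept by Argonaute to repress target mRNAs. miR-281 is an old family found across bilaterian animals, and in the fly it is made from a pair of neighbouring hairpins, mir-281-1 and mir-281-2. In the mosquito Aedes albopictus it is known as a miRNA of the midgut, and in the silkworm Bombyx mori it acts on an isoform of the ecdysone receptor in the Malpighian tubules. Ars2 works with the nuclear cap-binding complex and is known in flies and mammals to promote the processing of primary miRNA transcripts.

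Both hairpins lie on the minus strand of chromosome 2R (dm6, Ensembl annotation). The mir-281-1 hairpin spans 2R:12170373-12170462 and is 90 bp long. The mir-281-2 hairpin spans 2R:12170153-12170244, is 92 bp long and lies downstream of mir-281-1 after a gap of 128 bp. Both sit on the same strand within Oda, the gene of ornithine decarboxylase antizyme, which brings ornithine decarboxylase to the proteasome. In the transcripts Oda-RA and Oda-RC the hairpins fall in the intron before the second exon, which is 5887 bp and 2720 bp long respectively, whereas Oda-RB starts downstream of them. The noncoding transcripts of asRNA:CR46194 cover both hairpins with a single exon on the same strand. SmD3, the gene of a core protein of spliceosomal snRNPs, runs on the opposite strand and ends 149 bp from mir-281-2. The deposited counts do not say from which of these transcripts the hairpins were cut.

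**Figure D1:**
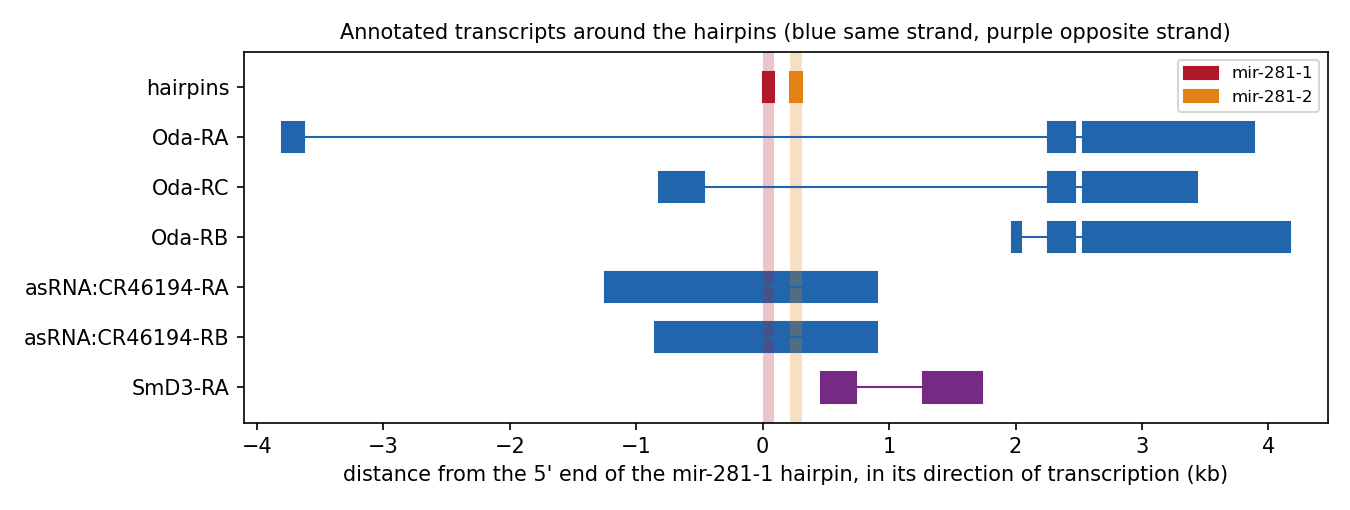
Annotated transcripts around the miR-281 hairpins, with the distance in kb from the 5' end of the mir-281-1 hairpin on the horizontal axis. Boxes are exons, lines are introns and shaded bands mark the 90 bp and 92 bp hairpins, which lie in introns of Oda-RA and Oda-RC and in the exon of asRNA:CR46194.

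The miRNA table held 653566 to 4554667 counts per library, and the libraries numbered 2 were the deeper ones in both groups. Levels are given in CPM, the count as a share of the library's miRNA counts on a scale of 1000000, unless they are said to be TMM-scaled. The maternal miRNA miR-184 took 12.0% and 47.6% of miRNA counts in Ars2KD 1 and 2, against 11.5% and 35.1% in wKD 1 and 2. With it, the 5 maternal germline markers summed to 145131 and 485681 CPM in Ars2KD 1 and 2, beside 135737 and 415154 CPM in wKD 1 and 2. The other 4 did not follow miR-184 in Ars2KD 2: miR-310-3p had 533 counts in Ars2KD 1 and 24 in Ars2KD 2, miR-311-3p had 3134 and 1447, miR-313-3p had 162 and 0, and miR-312-3p had 34937 counts in Ars2KD 2 beside 268846 in wKD 2. Of 3 follicle cell miRNAs fixed as ovary markers, 3 had counts, and their summed level was 93683 to 146017 CPM in Ars2KD and 107607 to 126465 in wKD. Within number 2 the log2 ratios of share, Ars2KD over wKD, were 0.19 for miR-989-3p, -1.05 for miR-994-5p and -2.40 for miR-318-3p. Within number 1 the ratios, in the same order, were 0.12, 0.35 and -0.14. The muscle markers miR-1-3p and miR-133-3p summed to 10587 and 16323 in Ars2KD 1 and 2, against to 8147 and 17608 in wKD 1 and 2. Of the neural markers, miR-124-3p was at 0 in all 4 libraries, and miR-7-5p gave a summed level of 1599.9 to 1799 in Ars2KD and 2454 to 5113 in wKD. The 6 testis markers summed to 111 to 372 in Ars2KD and 219 to 395 in wKD. In ovary tissue that holds several cell types, fewer cells of a type and less RNA per cell cannot be told apart.

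The 3p arm of miR-281 could not be measured from the table. The name miR-281-3p occurs at both hairpins, at 2R:12170383-12170405 and 2R:12170163-12170185, and both rows were listed at 0 in all 4 libraries. The same held for every name with several loci: 35 of 35 rows under 9 such names were at 0, among them miR-2a-3p, miR-2b-3p, miR-13b-3p and miR-6-3p. Of the 460 rows whose name has 1 locus, 203 (44.1%) were at 0. The treatment of reads with several positions is not given in the sources used here, and the zeros of miR-281-3p do not show that the arm was absent. The planned ratio of the 5p to the 3p arm could therefore not be computed, and all values that follow are of the 5p arms.

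miR-281-2-5p, the 22 nt 5p arm of mir-281-2 at 2R:12170209-12170230, held most of the pair's counts in every library. It had 290 counts in Ars2KD 1 and 8698 in Ars2KD 2, beside 410 in wKD 1 and 10021 in wKD 2. The level was 444 and 2363 in Ars2KD 1 and 2, against 388 and 2200.2 CPM in wKD 1 and 2. The groups overlapped, and the level followed the library number: it was 5.32-fold higher in number 2 than in number 1 within Ars2KD and 5.67-fold higher within wKD. The summed levels of the maternal and of the muscle markers, each set by its most abundant member (miR-184-3p and miR-1-3p), were also higher in number 2 in both groups. Other members of these lists were not, among them miR-310-3p and miR-313-3p in both groups and miR-133-3p in Ars2KD (11 and 5 counts). The follicle cell and testis sums were lower in number 2 in both groups, and the neural sum was lower in Ars2KD and higher in wKD. The part of any of these lists in the miR-281 difference was not tested. Among the rows of the table miR-281-2-5p ranked 67th and 18th in Ars2KD 1 and 2, against 68th and 27th in wKD 1 and 2. Between groups, its share of miRNA counts was 1.14-fold higher in Ars2KD within number 1, a log2 ratio of 0.19 with an exact 95% interval of -0.03 to 0.41. Within number 2 it was 1.07-fold higher, a log2 ratio of 0.10 (0.06 to 0.14). These and all later intervals describe counting error alone and leave out the spread between libraries. PCR copies of a molecule may be counted again, which would make the intervals too narrow.

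miR-281-1-5p, the 23 nt 5p arm of mir-281-1 at 2R:12170427-12170449, was the rarer of the 5p arms. It had 72 and 1078 counts in Ars2KD 1 and 2, against 52 and 430 counts in wKD 1 and 2. The level was 110.2 and 293 CPM in Ars2KD 1 and 2, against 49.2 and 94.4 CPM in wKD 1 and 2. On this scale both Ars2KD libraries lay above both wKD libraries, although Ars2KD 1 exceeded wKD 2 by little. The mean was 201 ± 129 in Ars2KD and 71.8 ± 32.0 in wKD (SD, n = 2). Its share was 2.24-fold higher in Ars2KD within number 1, a log2 ratio of 1.16 (0.63 to 1.71), and 3.10-fold higher within number 2, a log2 ratio of 1.63 (1.47 to 1.80). Like the other copy it was higher in number 2 than in number 1 in both groups, by 2.66-fold in Ars2KD and 1.92-fold in wKD. A higher share in number 2 within both groups was shared by 21 of 152 rows tested (13.8%), the miR-281 5p arms among them.

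**Figure D2:**
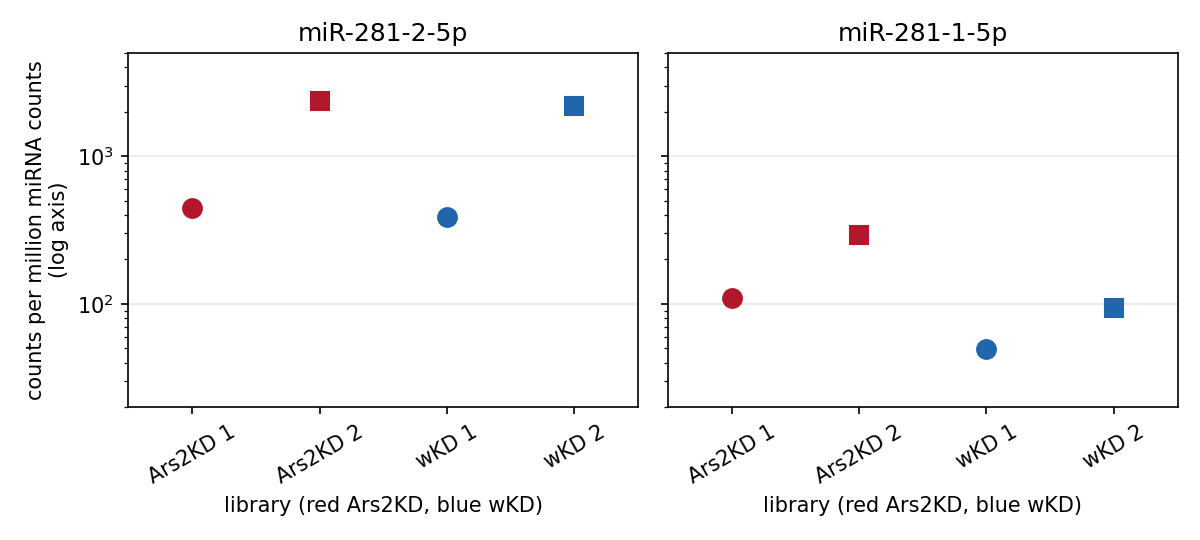
Level of each miR-281 5p arm in every library, in CPM of miRNA counts on a log axis, with 1 point per library (circles number 1, squares number 2). miR-281-2-5p lies at 388 and 444 in the libraries numbered 1 and at 2200.2 and 2363 in those numbered 2, and miR-281-1-5p lies at 110.2 and 293 in Ars2KD against 49.2 and 94.4 in wKD.

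Across all rows tested, the share of miRNA counts was higher in Ars2KD within both numbers for 16 of 152 (10.5%), and both miR-281 5p arms were among these. The groups did not overlap, with Ars2KD higher, for 2 of 152 rows (1.32%), miR-281-1-5p and miR-5-5p. A share at least 2-fold higher in Ars2KD within both numbers, a size chosen after the values were seen, was held by 1 of 152 rows (0.658%), miR-281-1-5p. The next row by its smaller ratio was miR-956-3p, with log2 ratios of 1.14 and 0.93 within numbers 1 and 2 and counts of 15 and 5083 in Ars2KD against 11 and 3312 in wKD. miR-5-5p followed with 1.06 and 0.80, on counts of 18 and 97 against 14 and 69. The median row had log2 ratios of 0.03 within number 1 and -0.94 within number 2, so most rows held a smaller share in Ars2KD 2 than in wKD 2. A share depends on the counts of all other rows, so whether the amount of any miRNA rose was not measured. Because the pair was proposed with these ratios known, the position of miR-281-1-5p among the rows is a description.

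**Figure D3:**
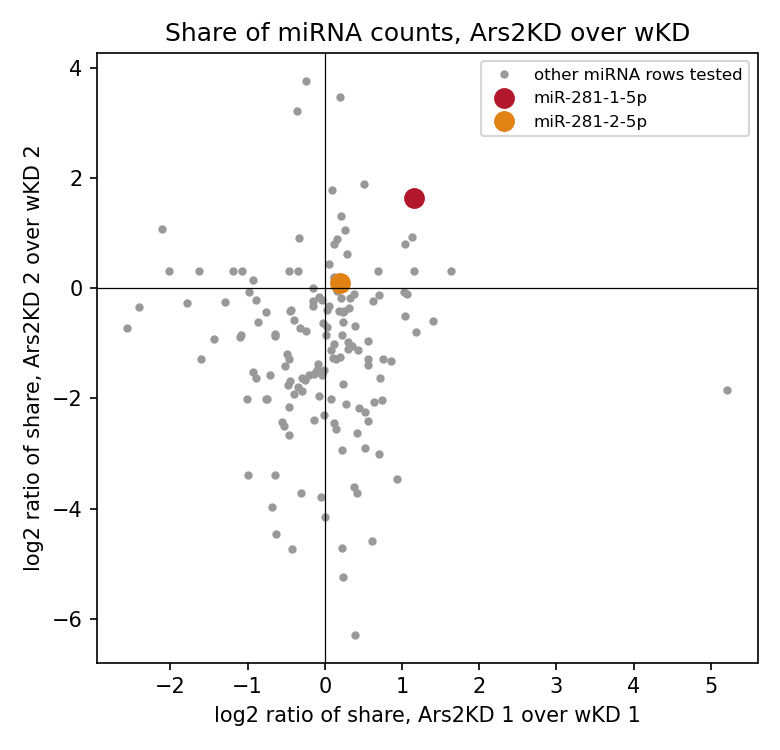
Log2 ratio of the share of miRNA counts, Ars2KD over wKD, within number 1 (horizontal) and number 2 (vertical) for the 152 rows tested, with 0.5 count added to each value. miR-281-1-5p lies above 1 on both axes, while miR-281-2-5p lies near the origin.

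The balance between the copies does not depend on how libraries are scaled. Its difference between groups restates the ratios of both 5p rows given above, set against each other. Those ratios were known when the pair was proposed, so the balance is a description. The likeness of the 5p sequences was not measured here, so how far this balance reflects the assignment of reads between like arms rather than the output of each hairpin was not tested. miR-281-1-5p made up 19.9% of the pair's 5p counts in Ars2KD 1 (exact 95% interval 15.9% to 24.4%) and 11.0% in Ars2KD 2 (10.4% to 11.7%). It made up 11.3% in wKD 1 (8.52% to 14.5%) and 4.11% in wKD 2 (3.74% to 4.51%). Copy 2 thus outnumbered copy 1 by 4.03 and 8.07 times in Ars2KD against 7.88 and 23.3 times in wKD. Ars2KD 2 and wKD 1 had nearly the same balance, so the groups overlapped by this measure. Within a number, copy 1 was higher relative to copy 2 in Ars2KD by 1.96-fold in number 1, a log2 difference of 0.97 (0.39 to 1.56), and by 2.89-fold in number 2, a log2 difference of 1.53 (1.36 to 1.70).

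Over both numbers the log2 ratio of copy 1 to copy 2 was -2.51 ± 0.71 in Ars2KD and -3.75 ± 1.11 in wKD (SD, n = 2), a difference of 1.25. The difference exceeded the SD of either group, but an SD of 2 libraries is loosely set and includes the difference between numbers. A two-sided exact permutation test gave p = 0.667, but its smallest possible p with these libraries is 0.333. It can thus neither pass a threshold nor show that the groups were alike, and it was run on ratios already known. Leaving out wKD 2 brought the difference to 0.46 and leaving out Ars2KD 1 to 0.74, while it was 1.75 without Ars2KD 2 and 2.03 without wKD 1. The balance also moved with the number, with copy 1 lower relative to copy 2 in number 2 by a log2 ratio of -1.01 within Ars2KD and -1.57 within wKD.

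The other miRNAs whose rows differ only by a copy number are set beside miR-281 as a description. The likeness of their 5p copies was not measured either, so they cannot show how reads of like arms were assigned. mir-2a and mir-2b belong to a family known for repressing pro-apoptotic genes, and their copies have separate 5p rows on 2L. For miR-2a, copy 1 held 54.3% and 77.0% of the 5p counts in Ars2KD 1 and 2, against 54.0% and 79.9% in wKD 1 and 2. Its copy balance differed between groups by log2 values of 0.02 (-0.44 to 0.47) in number 1 and -0.25 (-0.71 to 0.22) in number 2. For miR-2b, copy 1 held 5.38% and 18.1% in Ars2KD 1 and 2, against 5.96% and 12.0% in wKD 1 and 2. Its differences were -0.16 (-0.82 to 0.49) in number 1 and 0.70 (0.37 to 1.02) in number 2. The intervals of these pairs included 0 in number 1, where that of miR-281 did not, and they rest on 289 to 872 counts per library against 362 and 462 for miR-281. All 3 pairs changed with the number, miR-2a and miR-2b toward copy 1 in number 2 and miR-281 toward copy 2. In number 2 the interval of miR-2b also lay above 0, in the direction of miR-281. The difference between the pairs was not tested. Of the remaining sets, miR-13b-1-5p was at 0 in every library beside 316 to 878 counts for miR-13b-2-5p, and the 3 miR-6 copies had at most 7 counts in any library.

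**Figure D4:**
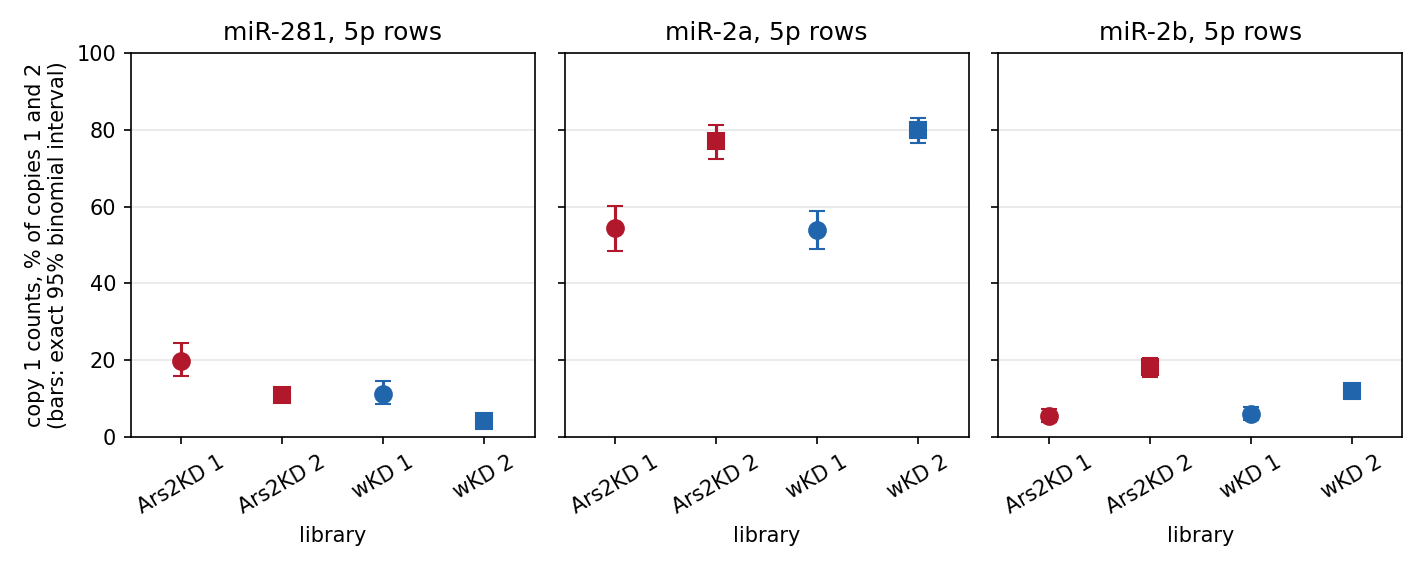
Copy 1 as a percentage of the 5p counts of copies 1 and 2 in each library (red Ars2KD, blue wKD, circles number 1, squares number 2), with exact 95% binomial intervals. For miR-281 the Ars2KD library lies above the wKD library of the same number, at 19.9% against 11.3% and 11.0% against 4.11%, and for miR-2b this holds in number 2, at 18.1% against 12.0%. For miR-2a the values of the same number lie close together.

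Differential abundance was tested with edgeR on all rows, after TMM scaling, which sets each library by the bulk of its rows. edgeR called 0 of 152 rows higher (0%) and 0 lower (0%) at an adjusted p under 0.05, and 0 rows reached an unadjusted p under 0.05. The counts of calls by DESeq2 and by limma-voom were likewise 0. With 2 libraries per group, the lack of calls does not show that the groups were alike. miR-281-1-5p had TMM-scaled levels of 49.7 and 944 CPM in Ars2KD 1 and 2, against 22.3 and 143 CPM in wKD 1 and 2, so on this scale the groups overlapped, while 3 other rows of 152 (1.97%) had both Ars2KD libraries above both wKD libraries. Its log2 ratio was 2.58 (SE 1.98, edgeR adjusted p 0.997, and 0.408 to 0.9997 over the alternatives), the highest ratio and the lowest unadjusted p of the 152 rows. miR-281-2-5p had 200.1 and 7619 CPM in Ars2KD 1 and 2, against 176 and 3342 CPM in wKD 1 and 2. Its log2 ratio was 1.15 (SE 2.14, edgeR adjusted p 0.997), with rank 24 by p and rank 13 by ratio. As the pair was proposed with its ratios known, the ranks of both arms are a description and not an outcome of the test.

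The TMM factors were 2.22 and 0.310 in Ars2KD 1 and 2, against 2.21 and 0.658 in wKD 1 and 2. They thus differed more between the numbers than between the groups of a number. TMM scaling raised every ratio within number 2 by 1.09 on the log2 scale and moved those within number 1 by less than 0.01. The log2 ratios within numbers 1 and 2 were therefore 1.16 and 2.72 for miR-281-1-5p and 0.19 and 1.19 for miR-281-2-5p on the TMM scale. Scaled to the table total instead, the edgeR log2 ratio of miR-281-1-5p was 1.49 (SE 1.75) and that of miR-281-2-5p was 0.12 (SE 1.99). Both ratios turned negative without Ars2KD 2, to -0.74 (SE 2.08) for miR-281-1-5p and -3.14 (SE 2.80) for miR-281-2-5p. Without that library, wKD 2 stood with no Ars2KD library of its number. Leaving out Ars2KD 2 thus changed the sign of both pooled ratios. Leaving out wKD 2 left Ars2KD 2 unmatched in the same way, with ratios of 4.27 for miR-281-1-5p and 4.26 for miR-281-2-5p. Within number 1 alone both ratios were above 0, at 1.16 and 0.19, though the interval given above for miR-281-2-5p included 0.

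**Figure D5:**
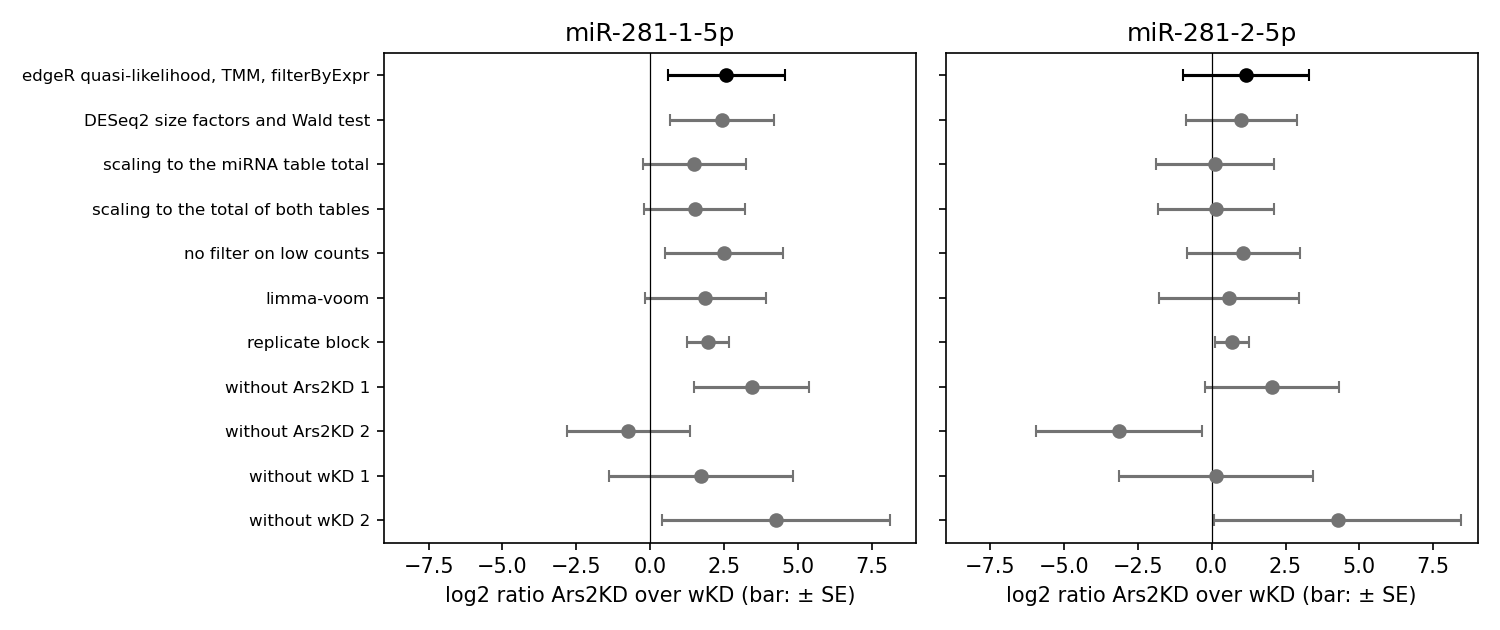
Log2 ratio Ars2KD over wKD of each miR-281 5p arm with its SE, in the edgeR test (black, top) and under each alternative (grey). All points lie above 0 except those without Ars2KD 2, at -0.74 for miR-281-1-5p and -3.14 for miR-281-2-5p.

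By likeness of profile, miR-263a-5p (2L) came closest to miR-281-2-5p, measured as the root mean square difference of centred log2 CPM over the 4 libraries. The difference was 0.147 for miR-263a-5p. It had 18780 counts in Ars2KD 1 and 724652 in Ars2KD 2, beside 28053 in wKD 1 and 775868 in wKD 2. miR-184-3p (0.351), miR-92b-3p (0.410), miR-14-5p (0.444) and miR-998-5p (0.457) followed among 132 other rows with a mean of at least 10 CPM. All 5 had a higher CPM in number 2 than in number 1 in both groups. The partner arm miR-281-1-5p was 13th in this order, with a difference of 0.912. For miR-281-1-5p itself the closest row, named outside the rule, was miR-284-5p (0.463), and miR-281-2-5p was 10th. The 4 libraries share 2 numbers, and likeness was not tested.

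In mean level over the 4 libraries, miR-281-2-5p ranked 40th with 1349 CPM, between miR-277-3p (1506) and miR-986-5p (1197). miR-277-3p had 2380 and 55 counts in Ars2KD 1 and 2, against 2375 and 549 in wKD 1 and 2, so its CPM was higher in number 1, where that of miR-281-2-5p was higher in number 2. miR-281-1-5p ranked 84th with 137, between miR-312-5p (142) and miR-318-5p (124). The gaps between these neighbours were smaller than the spread between libraries, and their order is not settled.

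Together the miR-281 rows held 0.0554% and 0.266% of miRNA counts in Ars2KD 1 and 2, against 0.0437% and 0.229% in wKD 1 and 2. The group means were 0.160% ± 0.149 in Ars2KD and 0.137% ± 0.131 in wKD (SD, n = 2), and they overlapped. Within number 1 the pooled share was 1.27-fold higher in Ars2KD, a log2 ratio of 0.34 (0.14 to 0.54), and within number 2 it was 1.16-fold higher, a log2 ratio of 0.21 (0.17 to 0.25). Copy 1 rather than copy 2 had the larger ratio within both numbers.

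The nearest other miRNA of the table was mir-988, 11.2 kb away within the splicing factor gene Prp8 on the same strand, and no further row lay within 50 kb. miR-988-5p had 92 and 244 counts in Ars2KD 1 and 2, against 285 and 868 in wKD 1 and 2, with log2 ratios of share of -0.94 and -1.52 within numbers 1 and 2. miR-988-3p had 570 and 14 counts in Ars2KD 1 and 2, against 560 and 55 in wKD 1 and 2, with log2 ratios of 0.72 and -1.67. Within number 2 both mir-988 arms thus had the sign opposite to the miR-281 arms, and within number 1 only the 5p arm did. Small RNAs of 24 to 29 nt over repeats were the second measurement of the series. The 8 repeat copies within 10 kb, 7 simple repeats and 1 of low complexity, had 2 counts in Ars2KD 1 and 0 in each of the other libraries. Over all 137555 repeat copies the libraries held 46218 to 323180 such counts, and whether the copies here were low for their kind was not tested.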

How the data were processed

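Small RNAs of 19 to 29 nt from 2 Ars2KD and 2 wKD ovary samples were used. The authors deposited raw counts per mature miRNA locus (495 rows) and raw counts of 24 to 29 nt reads per repeat copy (137555 rows), per the file headers. Tools named in the submitters' processing notes are Trimmomatic, FastQC, Bowtie2 and featureCounts, with the dm6 build. Their versions and settings, the strand and the treatment of reads with several positions are not given in the sources used here. Reads of near-identical arms may thus be missing or divided. Of 481 rows on the main chromosomes, 479 matched an annotated mature miRNA exactly (Ensembl 115). Number of table columns not used: 0.

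edgeR 4.0.16 in R 4.3.3 tested all rows (quasi-likelihood, TMM, filterByExpr, Benjamini-Hochberg, threshold 0.05, no replicate block). It was also run on simulated data, with the outcome not given here. Alternatives used DESeq2 1.42.0, limma 3.58.1, other scalings, no filter, a block and each library left out. SE is the log2 ratio over the square root of F. Ratios within a number use shares of miRNA counts, copy ratios add 0.5 count, and intervals are exact at 95% (scipy 1.17.1). No library repeated another by chi-square. The members and lists were chosen with earlier results of these data known. Named rows are every miR-281 row, rows most alike in profile or next in mean level, and copies of other hairpins with at least 10 counts. The 5 rows most alike were planned for both arms, but the 3p arm had no profile.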

Additional observations from a re-analysis of the deposited data

How the results depend on the processing

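The count of rows called by the test was 0 in both directions under all 10 alternatives. The ratio of miR-281-1-5p was above 0 in 9 of 10 alternatives and that of miR-281-2-5p in 9 of 10. Without Ars2KD 2 they were -0.74 and -3.14, and with 1 library left out they ranged from -0.74 to 4.27 and from -3.14 to 4.26. A group left with 1 library was assumed to vary like the other. With the replicate number as a block the log2 ratio of miR-281-1-5p was 1.96 (SE 0.72, edgeR adjusted p 0.408). That of miR-281-2-5p was 0.69 (SE 0.57, edgeR adjusted p 0.962). With the block 8 of 152 rows had an unadjusted p under 0.05, against 0 without it. miR-281-1-5p, whose ratio was known beforehand, was among the 8 (edgeR unadjusted p 0.0075). Deviations of same-numbered libraries correlated by 0.90 over 152 rows, so libraries of a number were alike beyond their group. With 2 pairs and no label for the number, what they share is not known. The copy balance kept its direction, from 0.46 to 2.03 with 1 library left out and 1.24 with a pseudocount of 1. Without miR-184 in the total, the pair's share was 0.285% in Ars2KD and 0.201% in wKD. The arm ratio was not run, because miR-281-3p was listed at 0. Depth limits miR-281-1-5p most in the libraries numbered 1, at 72 and 52 counts.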
